A study of Mus musculus with 8 samples.

Results

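Of the 31053 rows of the gene tables, 10 were examined, the most abundant messenger RNAs that are encoded on the mitochondrial chromosome: mt-Nd1, mt-Nd2, mt-Nd3, mt-Nd4, mt-Nd5, mt-Co1, mt-Co2, mt-Co3, mt-Atp6 and mt-Cytb. They were chosen by symbol, and their relative levels were read in all 41925 deposited barcodes by cell type, total UMIs, mitochondrial share and host genotype. A UMI (unique molecular identifier) stands for 1 captured RNA molecule. The 3 remaining mitochondrial messengers, mt-Atp8, mt-Nd4l and mt-Nd6, were kept as a comparison.

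The barcodes came from 8 B16F10 tumours, a transplantable mouse melanoma line, grown to about 300 mm3 in C57BL/6 mice of 12 weeks per the labels. There were 4 tumours from Atf4wt/wt hosts (2 male, 2 female) and 4 from Atf4D/D hosts (3 male, 1 female). All hosts carried the tamoxifen-inducible Rosa26::CreERT2 transgene and received tamoxifen, which deleted floxed Atf4 throughout the body of Atf4D/D mice, while the injected melanoma cells kept the gene. Each tumour gave 1 single-cell 3′ library of the whole tumour, so n counts tumours and tumours of both sexes were unevenly spread over the genotypes. Atf4 itself was read per tumour in CPM, which is the count scaled to the summed UMIs of the same barcodes. It stood at 255.7 to 313.8 CPM in fibroblast-like barcodes of Atf4wt/wt hosts and at 101.7 to 171.5 CPM in those of Atf4D/D hosts. In macrophage-like barcodes the ranges were lower in Atf4D/D hosts but overlapped, at 122.8 to 232.8 and 56.2 to 130.7 CPM. In melanoma-like barcodes the ranges overlapped too, at 253.9 to 396.5 and 296.2 to 422.9 CPM.

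The mitochondrial chromosome is transcribed from both strands as long precursors, which are cut at the transfer RNAs that lie between most of the messengers and then polyadenylated. Its messengers encode core subunits of the respiratory chain: the Nd proteins belong to complex I, which oxidises NADH, cytochrome b (mt-Cytb) to complex III, the Co proteins to complex IV, which reduces oxygen, and mt-Atp6 to the ATP synthase. In single-cell work their summed share is used as a sign of cell quality.

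The annotated 3′ ends are shown because the assay counts molecules by their polyadenylated end. In the GENCODE annotation of GRCm38, mt-Co3, mt-Nd4 and mt-Cytb stop at a lone T of the stop codon, which the poly(A) tail completes, whereas mt-Atp6, mt-Co1 and mt-Co2 carry a whole one. The annotation ends at these stop letters, and where the poly(A) tail of each messenger begins was not read, so a messenger may run further. Capitals mark the stop letters in the last 30 annotated bases of each gene, 5′ to 3′ on the plus strand of the mitochondrial chromosome.
mt-Co1: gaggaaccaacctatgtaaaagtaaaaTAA
mt-Co2: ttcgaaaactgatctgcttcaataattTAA
mt-Atp6: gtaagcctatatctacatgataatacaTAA
mt-Co3: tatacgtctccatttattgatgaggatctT
mt-Nd4: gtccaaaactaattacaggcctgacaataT
mt-Cytb: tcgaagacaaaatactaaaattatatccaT

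These genes occupy chromosome MT at 5328 to 6872 (mt-Co1), 7013 to 7696 (mt-Co2), 7927 to 8607 (mt-Atp6), 8607 to 9390 (mt-Co3), 10167 to 11544 (mt-Nd4) and 14145 to 15288 (mt-Cytb). The mt-Atp6 and mt-Co3 genes overlap by 1 base. No member has an intron. Runs of A inside a messenger are shown next, since an oligo(dT) primer can also anneal there. The longest was an 8-base run in mt-Nd2, 892 bases from its annotated 3′ end. A 6-base run lay 82 bases from the annotated end of mt-Nd1. Capitals mark the run.
mt-Nd2, chrM:4042-4069: actaatcaacAAAAAAAAcccacgatca
mt-Nd1, chrM:3610-3635: atcttctatgAAAAAActttctaccc
Neither mt-Co2, mt-Atp6, mt-Co3, mt-Nd3 nor mt-Cytb held a run of 6 or more.

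A nuclear copy of part of this chromosome bears on 6 members. On chromosome 1 of GRCm38, between 24611535 and 24616197, annotated pseudogenes on the minus strand matched mt-Co2 over 681 bases, mt-Atp6 over 678 and mt-Co3 over 783 without a differing letter, and mt-Nd3 at 344 of 345 letters. Part of mt-Nd4 (876 bases, identical) and of mt-Co1 (486 of 492 letters) was copied as well. None of the pseudogenes was a row of the gene tables. How reads that match both places were counted is not given in the sources used here, so the absolute levels of these 6 members are less certain than those of mt-Nd1, mt-Nd2, mt-Nd5 and mt-Cytb. This applies less to mt-Nd4. Its copy adjoins that of mt-Nd4l, covers 63.6% of the messenger from the 5′ side and leaves out the annotated 3′ end.

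The 10 members held 25279193 of 379479794 UMIs. Library totals ran from 37283598 to 74942137 UMIs over 4231 to 8696 barcodes, and the members took 5.82% (Atf4D/D replicate 2) to 7.11% (Atf4wt/wt replicate 2) of a library. A share of 7.5%, the upper limit that the study set for a barcode, was exceeded by 21.5% to 36.7% of the barcodes of a tumour. One melanoma-like cluster of 1207 barcodes, with a median of 3218 UMIs, came to 97.1% from Atf4wt/wt replicate 4, and 199 of 41725 barcode sequences occurred in more than 1 library. Clusters were named from marker genes after clustering without any mitochondrial gene. Of the barcodes, 34509 were melanoma-like, 806 CAF-like (cancer-associated fibroblasts), 364 TAM-like (tumour-associated macrophages) and 5412 stayed unnamed. Immune barcodes were clustered again, and the TAM-like class is the subcluster led by Stab1, C1qa and Ms4a7. A further 595 barcodes of the immune clusters were given no class. Among them, 289 formed a subcluster led by Chil3, Hp and Plac8 and 156 one led by Mmp12, Arg1 and Rsad2. Another 109 of the 595 were led by Pmel, Ptgds and Dct and carried melanoma markers. Their median was 9802 UMIs, against 1088 in the subcluster of 289 and 1202 in that of 156. All 10 melanoma markers, all 14 CAF markers and all 11 TAM markers were found in over 10% of the barcodes of their own class. The same lists and limit took part in the naming, so this is no separate check. Melanoma markers passed that limit in other classes too, 9 of 10 in CAF-like and 6 of 10 in TAM-like barcodes. In melanoma-like barcodes 2 of 14 CAF markers and 1 of 11 TAM markers passed it. Of 7 pericyte markers, 3 were found in over 10% of the CAF-like barcodes too. At another clustering resolution 103 barcodes led by Acta2 and Rgs5 formed a pericyte-like cluster, and 703 were CAF-like. The classes have been rebuilt, so they may differ from those of the study.

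UMIs per kilobase of messenger differed over a wide range among transcripts of one strand. On this scale, as a share of the 10 members, mt-Atp6 led with 31.4% ± 1.08 (SD, n = 8 tumours), followed by mt-Co2 with 20.2% ± 0.565, mt-Co3 with 16.1% ± 0.446, mt-Cytb with 9.69% ± 0.336 and mt-Co1 with 5.82% ± 0.623. The complex I messengers lay below, from mt-Nd1 at 5.48% ± 0.614 to mt-Nd5 at 0.424% ± 0.0435. Each gene exceeded the next in all 8 tumours except at 2 places. The order, and with it the pairs and their direction, came from these same values, so the p-values of the pairs are descriptive only. The shares per kilobase of mt-Co1 and mt-Nd1 were not separated by their spread (mt-Co1 higher in 6 of 8 tumours, exact sign-flip permutation test, p = 0.172), and mt-Nd4 exceeded mt-Nd3 in 7 of 8 (exact sign-flip p = 0.0156, 0.0176 after Benjamini-Hochberg adjustment over the 9 neighbouring pairs). The 3′ assay counts 1 end per molecule, so dividing by length lowers the long messengers relative to a count of molecules. As shares of the members' UMIs without that division, the ranges of mt-Co1 (9.52% to 12.0%) and mt-Nd1 (5.40% to 7.35%) lay apart. The mean of mt-Nd4 (5.99% ± 0.294) was then above that of mt-Nd2 (5.37% ± 0.270), the reverse of the order per kilobase, with overlapping ranges. All further shares are UMIs of a member in percent of the summed UMIs of the 10, compared for the same member between groups, and a rise of 1 share lowers the others by construction.

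The spread between tumours differed among the transcripts. Over all barcodes the share of mt-Co3 lay between 14.4% and 15.7% in the 8 tumours and that of mt-Co2 between 15.4% and 17.1%. The widest member was mt-Nd3, with 0.940% to 1.41%, a ratio of 1.5 between the highest and the lowest tumour. Outside the 10, mt-Atp8 ranged from 0.155% of the sum of the 10 in Atf4wt/wt replicate 4 to 1.05% in Atf4D/D replicate 2, a ratio of 6.74. The mt-Atp8 gene overlaps mt-Atp6 by 43 bases with no transfer RNA between them, so its UMIs need not stand for a separate messenger with its own polyadenylated end. The mt-Nd6 transcript, the only messenger of the other strand, was the rarest, with 11344 UMIs in all.

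The composition in TAM-like barcodes departed from that in melanoma-like ones. TAM-like barcodes held more of mt-Co1 and mt-Co3 and less of mt-Cytb, mt-Atp6, mt-Nd4, mt-Nd5 and mt-Nd2 than melanoma-like barcodes of the same tumour, and 7 of 10 members passed the test in that comparison. With 22 to 146 barcodes per tumour in 7 tumours (Atf4wt/wt replicate 2 held under 10 and was left out), the mt-Cytb share was 6.92% at the lowest, 7.51% at the median and 8.25% at the highest. The same tumours gave 12.5%, 13.1% and 13.9% in melanoma-like barcodes, so the classes did not overlap. The mt-Cytb share was 0.573-fold the melanoma-like value (log2 -0.80 ± 0.08, SD, n = 7), lower in 7 of 7 tumours (exact sign-flip permutation test, p = 0.0156, the smallest that 7 tumours allow, 0.0223 after Benjamini-Hochberg adjustment over the 10 members, which are all the genes for which this share is defined).

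For mt-Co1, which encodes the catalytic subunit of complex IV, TAM-like shares were 15%, 16.6% and 18.9% at the lowest, median and highest tumour, against 9.64%, 11.1% and 12.1%. They exceeded the melanoma-like share 1.54-fold. The mt-Co3 share was 1.39-fold higher (20.7% ± 1.54 against 14.9% ± 0.415) and again all TAM-like values lay above all melanoma-like ones. The mt-Atp6 share was 0.791-fold (19.7% ± 0.898 against 24.9% ± 0.888), mt-Nd4 0.805-fold and mt-Nd5 0.750-fold. All of these members moved one way in 7 of 7 tumours with the same adjusted p of 0.0223 (exact sign-flip test). The mt-Co2 share was higher in 6 of 7 tumours and missed the threshold (adjusted p = 0.0586, exact), and mt-Nd1 and mt-Nd3 showed no consistent direction (4 and 5 of 7 higher).

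CAF-like barcodes also departed from melanoma-like ones, with 6 of 10 members past the test, not all the same as in TAM-like barcodes. Their mt-Co1 share had a lowest, median and highest value of 11.4%, 14% and 14.9% over 8 tumours, against 9.64%, 10.7% and 12.1%, so the ranges overlapped although the share was higher in 8 of 8 tumours (1.26-fold, exact sign-flip permutation test p = 0.00781, the smallest that 8 tumours allow, adjusted 0.0130). The mt-Co3 share was higher 1.12-fold and mt-Nd1 1.08-fold. The mt-Atp6 share (0.874-fold), mt-Nd2 (0.889-fold) and mt-Cytb (0.890-fold) were lower, each in 8 of 8 tumours with the same p. The mt-Nd4 and mt-Nd5 log2 ratios were -0.04 and 0.14 and not called, against -0.31 and -0.41 in TAM-like barcodes. In CAF-like barcodes mt-Nd1 lost its call when only barcodes with at most 2 UMIs of Dct, Pmel, Tyrp1 and Mlana were kept. Its log2 ratio was then -0.01, without Atf4D/D replicate 3, which held 4 such barcodes.

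**Figure D1:**
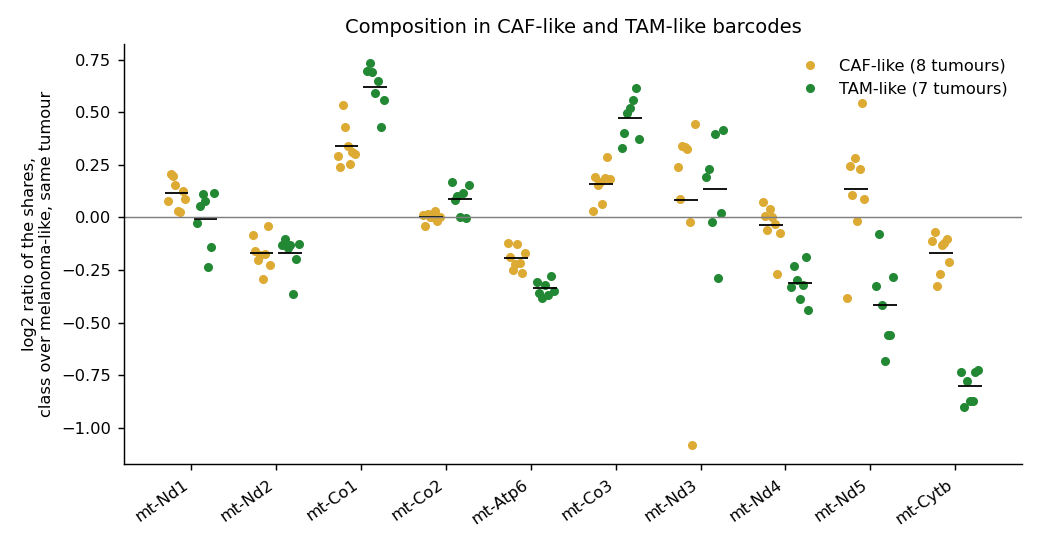
For each of the 10 messengers in chromosome order, points give the log2 ratio of its share in CAF-like (8 tumours) or TAM-like (7 tumours) barcodes over melanoma-like barcodes of the same tumour, and black bars the mean. The mt-Cytb points of TAM-like barcodes lie lowest as a group with a mean of -0.80, while mt-Co1 and mt-Co3 lie above 0 in every tumour for both classes.

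Melanoma RNA was present in both classes. The UMIs of Dct, Pmel, Tyrp1 and Mlana, pigment-cell genes, stood at 3513 CPM in CAF-like and 1353 CPM in TAM-like barcodes, which is 26.6% and 10.2% of their 13226 CPM in melanoma-like barcodes. Among CAF-like barcodes with at most 2 such UMIs (405 in all), the mt-Co1 log2 ratio was 0.49 instead of 0.34. Among such TAM-like barcodes (216 in all), mt-Co1 was 0.67 instead of 0.62 and mt-Cytb -0.86 instead of -0.80. Both comparisons left out Atf4D/D replicate 3, which held 4 and 9 such barcodes. Leaving out single tumours without this limit gave 0.31 to 0.35 for CAF-like mt-Co1. The CAF-like barcodes kept also held fewer UMIs each, as in Atf4wt/wt replicate 1 with 95011 in 33 barcodes against 445862 in 81. Depth also differed, with median UMIs of 4426 (CAF-like), 2258 (TAM-like) and 9909 (melanoma-like). Among barcodes of 2000 to 8000 UMIs in both classes, mt-Cytb in TAM-like barcodes was at -0.77 and mt-Co1 at 0.53, whereas mt-Nd1 turned to a log2 ratio of 0.23 (exact sign-flip test, adjusted p = 0.045). The mt-Nd2 log2 ratio was -0.14 there instead of -0.17 and missed the threshold (adjusted exact p = 0.059). At this depth, which left out Atf4D/D replicate 3, CAF-like barcodes had 8 members past the test, and mt-Co2 turned to -0.04 (adjusted p = 0.022, exact sign-flip test). Their mt-Nd3 log2 ratio, 0.08 and not called over 8 tumours, was 0.45 (same adjusted exact p) and above that of mt-Co1 (0.38). Without Atf4D/D replicate 3 at all depths it was 0.25 (adjusted exact p = 0.045). At another clustering resolution it was also 0.25 (adjusted exact p = 0.039), but that setting left out the same tumour, which held 8 CAF-like barcodes there. The part of melanoma RNA and depth in the remaining differences was not tested.

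The smaller immune and vascular classes are given as pooled values with no test. The mt-Cytb share was 9.28% in 86 T/NK-like barcodes, 8.34% in 42 dendritic-like barcodes and 13.7% in 48 endothelial-like barcodes, against 13.2% in pooled melanoma-like barcodes. The mt-Co1 share was 15%, 14.7% and 12.5% in the same order, and 10.7% in melanoma-like barcodes. In the 595 barcodes of the immune clusters without a class, mt-Cytb had 11.0% and mt-Co1 14.3%. The melanoma marker level of the 595 was 68.9% of that in melanoma-like barcodes. They include the 109 led by Pmel, Ptgds and Dct, whose greater depth gives them more weight in pooled values. The wider cluster of 930 barcodes, named TAM before immune barcodes were clustered again, had 9.48% mt-Cytb and 15.6% mt-Co1. It may hold some of these 109 too. Pooled TAM-like barcodes had 7.39% and 17.3%. The mt-Nd3 share was 2.10% in T/NK-like barcodes against 1.17% in melanoma-like ones. By tumour it was 2.52%, 2.17% and 2.47% in Atf4wt/wt replicates 1, 3 and 4 and 1.20% in Atf4D/D replicate 4, with 12 to 21 barcodes each. T/NK-like barcodes had a median of 755 UMIs, so these values rest on few molecules. With 1 Atf4D/D tumour, no difference between hosts can be read from them.

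The summed level of the members was lower in CAF-like barcodes, and in TAM-like barcodes it depended on the depth of the barcodes compared. The members made up 3.05% to 4.62% of the UMIs of CAF-like barcodes and 5.57% to 6.76% of those of melanoma-like barcodes. The mean was 3.68% ± 0.572 against 6.33% ± 0.443 (SD, n = 8), and the classes did not overlap. The difference of -2.65 percentage points was -4.03 at 2000 to 8000 UMIs (lower in 7 of 7 tumours) and -1.88 under the study's limits. In TAM-like barcodes the share was 6.27% ± 0.857 against 6.28% ± 0.455 in the same 7 tumours, higher in 3 of 7. Among barcodes of 2000 to 8000 UMIs the TAM-like mean was 5.57% ± 0.650 against 6.78%, lower in 7 of 7 tumours, a difference of -1.20 percentage points. A share of UMIs cannot tell less mitochondrial RNA from more nuclear RNA per barcode.

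The mean of the summed share in melanoma-like barcodes was 6.14% ± 0.489 in Atf4D/D hosts and 6.51% ± 0.352 in Atf4wt/wt hosts (SD, n = 4 each). The values were 6.76%, 5.57%, 6.17% and 6.05% in Atf4D/D replicates 1 to 4 and 6.76%, 6.67%, 6.64% and 5.99% in Atf4wt/wt replicates 1 to 4. The genotypes overlapped.

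No member was called by genotype with edgeR's quasi-likelihood test on summed counts (Benjamini-Hochberg adjusted p under 0.05 over all genes tested). The share of all genes called was 0% of 12982 in melanoma-like barcodes, with 1457 genes at an unadjusted p under 0.05. It was 0.0191% of 5236 in CAF-like barcodes, 0.233% of 1290 in TAM-like barcodes and 0% of 13539 over all barcodes, with 1442 genes at an unadjusted p under 0.05 in the last. The fits found 0 of 10 members in each of the 4. The median log2 fold change of the 10 members, Atf4D/D over Atf4wt/wt, was -0.13 in melanoma-like, -0.25 in CAF-like and -0.07 in TAM-like barcodes, where the median over all genes tested was -0.00, -0.02 and 0.01. In melanoma-like barcodes 4 of 10 members had an unadjusted p under 0.05 and were lower in Atf4D/D hosts, a group to which 5.30% of all genes tested belonged. These were mt-Nd2, mt-Atp6, mt-Nd3 and mt-Cytb.

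The mt-Nd3 messenger, for a small membrane subunit of complex I, had the lowest p among them. Its normalized level was 898.5, 740.0, 963.5 and 832.3 CPM in Atf4wt/wt replicates 1 to 4 and 750.2, 587.1, 603.5 and 553.3 CPM in Atf4D/D replicates 1 to 4. Only Atf4D/D replicate 1 reached into the range of the Atf4wt/wt hosts, above their replicate 2. The log2 fold change was -0.46 ± 0.11 (SE), with a Benjamini-Hochberg adjusted p of 0.217 in edgeR. DESeq2 called it (adjusted p = 0.00719), 1 of 129 genes it called in these barcodes. How many genes DESeq2 tested is not given here, so this call stands without a share over all genes. In CAF-like barcodes its log2 fold change was -0.62 ± 0.23 and in TAM-like barcodes -0.44 ± 0.22, with adjusted p of 0.580 and 0.523 in edgeR, and all 3 classes come from the same libraries. In CAF-like barcodes its CPM did not overlap between genotypes, at 569.9 to 755.0 in Atf4wt/wt and 147.1 to 563.7 in Atf4D/D hosts, where the lowest value is that of replicate 3 with 10 barcodes. Of all genes tested in these barcodes, 4.34% did not overlap. No member's CPM separated the genotypes in melanoma-like barcodes, where 6.47% of all genes tested did.

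The proportions among the members separated the genotypes for mt-Co1 and mt-Atp6. Both shares are parts of 1 sum, so these separations are not independent. The levels of the same messengers overlapped between genotypes in melanoma-like barcodes. The edgeR log2 fold change was 0.10 ± 0.07 (SE, adjusted p = 0.645) for mt-Co1 and -0.22 ± 0.08 (adjusted p = 0.350) for mt-Atp6. In melanoma-like barcodes the mt-Co1 share was 10.2%, 9.69%, 9.81% and 9.64% in Atf4wt/wt replicates 1 to 4 and 11.3%, 12.1%, 11.1% and 12.1% in Atf4D/D replicates 1 to 4. Every Atf4D/D tumour lay above every Atf4wt/wt tumour, by 1.79 percentage points on average (exact permutation test over 70 assignments, two-sided p = 0.0286, the smallest that 4 against 4 allow). After Benjamini-Hochberg adjustment over the 10 members it was 0.143, so neither this nor any other member passed, which in this design would take the smallest p in at least 6 members. The mt-Atp6 share was 25.7%, 26.7%, 25.6% and 25.7% in Atf4wt/wt hosts and 23.7%, 23.7%, 25.3% and 24.8% in Atf4D/D hosts. Again the genotypes did not overlap, with a mean difference of -1.53 percentage points (exact p = 0.0286, adjusted 0.143). The mt-Nd3 share was 1.30% ± 0.145 and 1.03% ± 0.0745 (adjusted exact p = 0.143). The shares of mt-Co2, mt-Co3 and mt-Nd5 differed by 0.0474, -0.00397 and 0.0252 percentage points.

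The direction within single melanoma-like clusters was examined next. In each of the 8 melanoma-like clusters present in every tumour, the mean mt-Co1 share was higher in Atf4D/D hosts, by 1.12 to 2.54 percentage points, and in 6 of them the genotypes did not overlap. The mt-Atp6 share was lower in 8 of 8, with differences of -1.62 to -0.856 percentage points, without overlap in 5. The means of 4 more members also kept one direction in 8 of 8 clusters, higher for mt-Nd1 (without overlap in 0) and lower for mt-Nd2 (1), mt-Nd3 (3) and mt-Cytb (0). The clusters share tumours and are not replicates. Among male mice, 2 against 3, the mt-Co1 difference was 1.74 percentage points and that of mt-Atp6 -1.0. In CAF-like barcodes mt-Co1 lay at 13.8% to 14.9% in Atf4D/D and 11.4% to 14.2% in Atf4wt/wt hosts, and in TAM-like barcodes at 15% to 18.9% and 15.6% to 16.6%, so that both overlapped. The CAF-like overlap rests on Atf4D/D replicate 3 (13.8%), with 10 barcodes. The next lowest Atf4D/D value was 14.233% (replicate 1), against 14.228% in Atf4wt/wt replicate 3, the highest of those hosts.

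**Figure D2:**
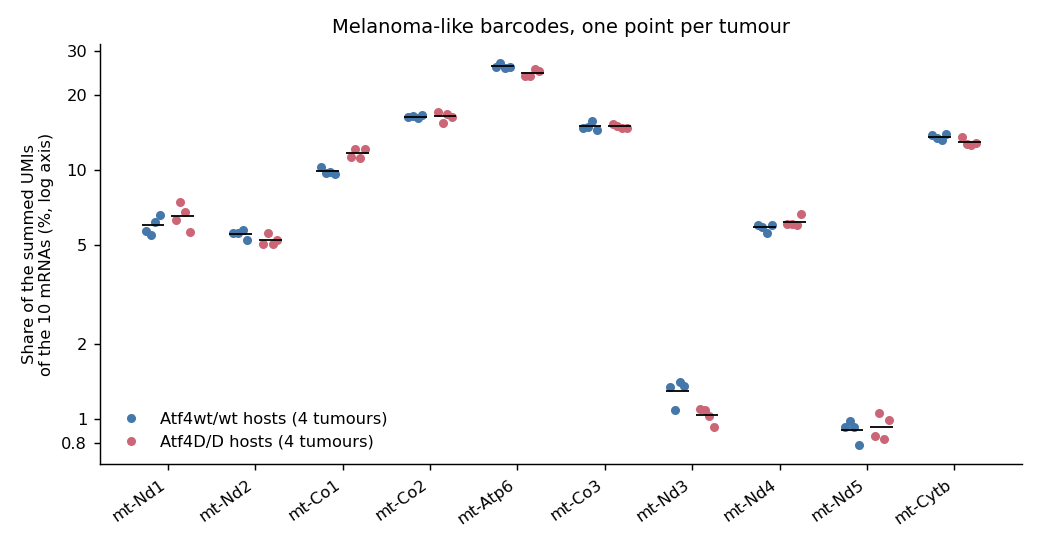
Share of each messenger in the summed UMIs of the 10 (log axis) in melanoma-like barcodes, 1 point per tumour and a black bar for the mean of 4 Atf4wt/wt or 4 Atf4D/D tumours. The mt-Co1 points of the genotypes do not overlap, nor do those of mt-Atp6, while mt-Co2 and mt-Co3 differ by under 0.05 percentage points on average.

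None of the genes that make or process mitochondrial RNA was called by genotype in melanoma-like barcodes either, with 0 of 39 tested in each direction, a median log2 fold change of -0.02 and 4 at an unadjusted p under 0.05, where 11.2% of all genes tested had such a p. For Tfam, the packaging and transcription factor of the mitochondrial chromosome, it was -0.19 ± 0.07 (SE, edgeR adjusted p = 0.352), and for Polrmt, its RNA polymerase, -0.18 ± 0.09 (adjusted p = 0.489). Lrpprc and Slirp, which bind and stabilise mitochondrial messengers, were at -0.09 ± 0.08 and -0.11 ± 0.07, and the coactivator Ppargc1a at -0.00 ± 0.12. Of the nuclear partners, 0 of 46 genes listed for complex I were called. The counts were 0 of 9, 0 of 13 and 0 of 16 for complex III, complex IV and ATP synthase subunits. Median log2 fold changes were -0.04, -0.00, -0.03 and -0.03 in this order. The complex I list was matched by symbols that begin with Nduf, so it took in assembly factors (Ndufaf genes) and is not confined to subunits. At an unadjusted p under 0.05 were 1 higher and 7 lower in the complex I list, 1 and 1 for complex III, 2 and 0 for complex IV and 0 and 2 for ATP synthase. Complex II, which has no mitochondrially encoded subunit, had a median of 0.19 over 4 genes, 3 of them higher at an unadjusted p under 0.05 and 0 called.

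Among the 8 melanoma-like clusters the composition differed as well. The clusters led by Ero1l, Car9 and Bnip3, or by Espn, Selenbp1 and Ndrg1, of which Car9, Bnip3 and Ndrg1 are known targets of hypoxia, held the most mt-Co1 and the least mt-Nd1. In the first, the mt-Co1 share had a mean of 12.7% ± 1.65 (SD, n = 8 tumours), against 9.31% ± 0.799 in the cluster led by Uhrf1, Cdc6 and Mcm3, genes of DNA replication. It was higher in 8 of 8 tumours. The mt-Nd1 share was 4.92% ± 0.532 against 7.03% ± 0.723, without overlap between the clusters and lower in 8 of 8. The mt-Cytb share was 12.5% ± 0.708 against 14% ± 0.522 and also lower in 8 of 8, while mt-Atp6 was 25.3% in one and 25.4% in the other. The cluster led by Espn stood to the mitotic cluster led by Prc1 and Top2a in the same way, with 13.4% against 9.91% mt-Co1 and 4.97% against 7.17% mt-Nd1. The summed member level was 6.21% against 6.59% of all UMIs in the first pair, lower in 7 of 8 tumours. In the second pair it was 6.04% against 6.12%, lower in 5 of 8. These pairs were chosen after their values were seen and are given without a test.

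**Figure D3:**
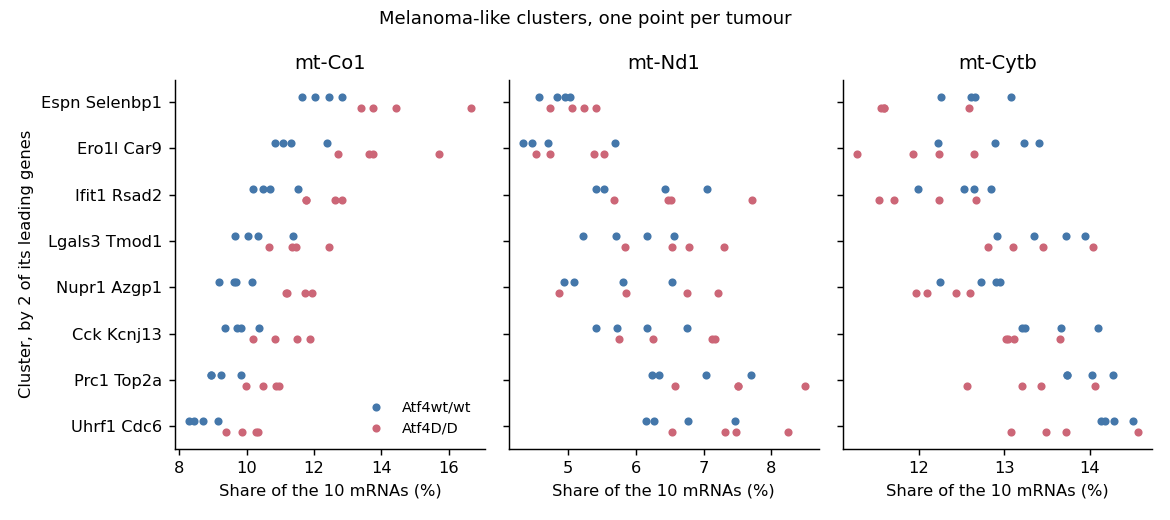
Each point is 1 tumour in 1 of the 8 melanoma-like clusters found in all tumours, placed by the share of mt-Co1, mt-Nd1 or mt-Cytb in the 10 messengers (linear axes, not starting at 0). The clusters led by Espn and by Ero1l lie highest in mt-Co1, with means of 13.4% and 12.7%, and lowest in mt-Nd1, and Atf4D/D tumours lie to the right of Atf4wt/wt tumours for mt-Co1 in most clusters.

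Barcodes with much mitochondrial RNA held a different mixture from barcodes with little. Above a mitochondrial share of 10%, the mt-Nd1 share was 4.79%, 5.50% and 5.86% at the lowest, median and highest tumour, against 5.67%, 6.88% and 8.90% in barcodes at or under 5%. The ranges overlapped, but mt-Nd1 was lower in 8 of 8 tumours, 0.778-fold (exact sign-flip permutation test p = 0.00781, adjusted 0.0112). The mt-Nd5 (0.796-fold), mt-Nd3 (0.808-fold) and mt-Co1 (0.885-fold) shares were lower too, and those of mt-Co3 (1.12-fold), mt-Co2 (1.09-fold) and mt-Atp6 (1.03-fold) higher, each in 8 of 8 tumours. With mt-Nd2 (7 of 8 lower, adjusted exact p = 0.0391), 8 of 10 members passed. The mt-Cytb share did not move past its spread (12.8% above 10% and 12.9% at or under 5%), but it passed in opposite directions under other groupings, with a log2 ratio of -0.06 when mt-Cytb was left out of the share that sorts the barcodes (adjusted exact p = 0.020) and 0.08 for barcodes above 20% against those at or under 2.5% (0.017). The mt-Atp6 share lost its call when mt-Atp6 was left out of the sorting share (log2 ratio 0.00) and in melanoma-like barcodes alone (-0.01). In melanoma-like barcodes mt-Co1 lost its call as well, at -0.05.

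From 1% upward mt-Nd1 and mt-Co2 changed over several bins. The mean mt-Nd1 share fell from 7.95% ± 1.60 in barcodes of 1% to 2.5% mitochondrial RNA to 5.15% ± 0.529 above 50%, where 456 barcodes lay, and the mt-Co2 share rose from 14.4% ± 1.00 to 17.4% ± 0.428. The mt-Co1 share lay at 10.8% to 11.1% between 1% and 15% and was 8.30% ± 0.819 between 25% and 50%. At or under 0.5% lay 1547 barcodes with 9212 member UMIs in all, in which mt-Atp6 had 28.2% ± 2.81 and mt-Co2 13.8% ± 1.12. The mt-Nd1 share was 6.64% ± 1.24 there and 7.84% ± 1.39 between 0.5% and 1%. Neither mean lay above that at 1% to 2.5%, but the spreads of the 3 bins overlapped. Where the fall of mt-Nd1 begins was not tested.

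**Figure D4:**
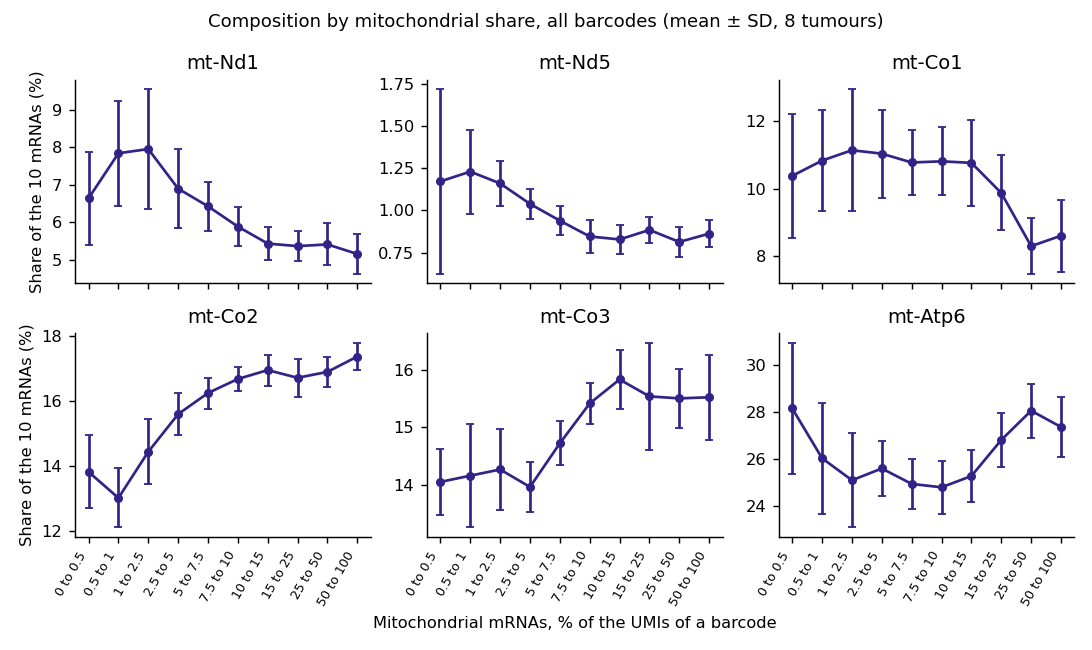
Mean share of 6 messengers in the 10 (points, bars ± SD over 8 tumours) in bins of the mitochondrial share of a barcode, over all deposited barcodes (linear axes, not starting at 0). From 1% upward mt-Nd1 falls from 7.95% to 5.15% and mt-Co2 rises from 14.4% to 17.4%, and mt-Co1 drops above 15%.

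The relation to the total UMIs of a barcode turned with the barcodes that were kept. Among melanoma-like and unnamed barcodes, 4374 with at least 16000 UMIs held more mt-Nd1 (6.79% ± 0.641 against 5.55% ± 0.594), mt-Co1 (10.5% ± 0.889 against 9.29% ± 0.914), mt-Nd4, mt-Nd3 and mt-Cytb than 8095 with under 4000, and less mt-Atp6 (24.8% ± 1.04 against 27.3% ± 1.10), mt-Co2 and mt-Co3. Each of these 8 members moved one way in 8 of 8 tumours (exact sign-flip p = 0.00781, adjusted 0.00977). The barcodes with few UMIs had a mitochondrial share of 14.6% against 6.38%, and 63.9% of them belonged to the unnamed clusters. Under the limits of the study, 200 to 5000 genes and at most 7.5% mitochondrial RNA, 5 members passed. Of these mt-Co1 (log2 ratio -0.25), mt-Atp6 (0.08) and mt-Nd5 (-0.37) had turned, with adjusted exact p of 0.026, 0.031 and 0.031. The mt-Nd1 log2 ratio was 0.06 instead of 0.29 and lost its call (adjusted exact p = 0.123). Held between 4% and 8% mitochondrial RNA, mt-Co1 was at -0.28, mt-Atp6 at 0.08 and mt-Nd2 at 0.17, all turned and past the test (adjusted exact p of 0.026, 0.039 and 0.047), and mt-Nd1 at 0.10 missed it (0.052). In melanoma-like barcodes of that band, the mt-Co1 share was 13.9% ± 1.82 at 1000 to 2000 UMIs and 10.5% ± 0.918 at 16000 to 32000.

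**Figure D5:**
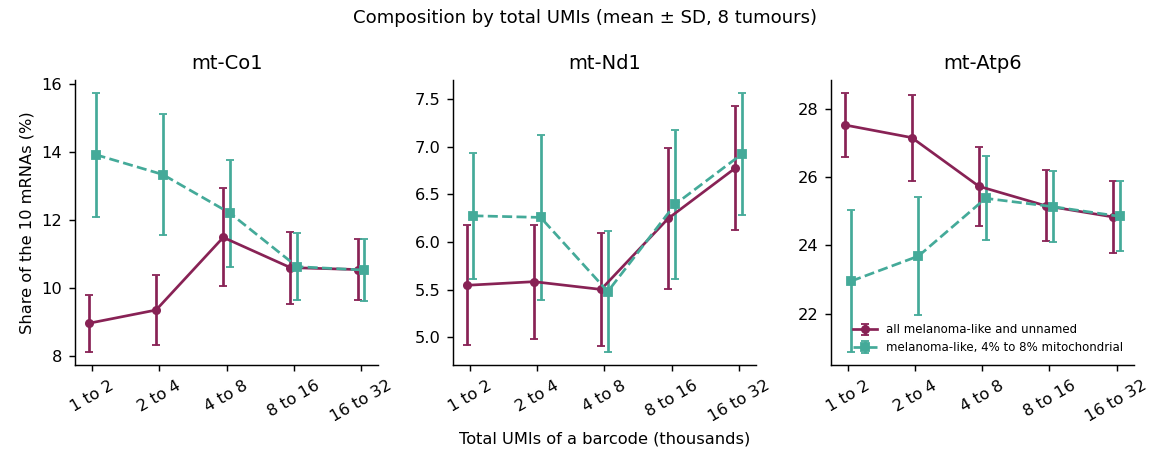
Mean share of mt-Co1, mt-Nd1 and mt-Atp6 (± SD, 8 tumours) by total UMIs of a barcode, for all melanoma-like and unnamed barcodes (circles) and for melanoma-like barcodes with 4% to 8% mitochondrial RNA (squares), on linear axes that do not start at 0. Of the bins drawn, the mt-Co1 share of the first set is lowest at 1000 to 2000 UMIs (8.97%) and highest at 4000 to 8000 (11.5%), while in the second it falls from 13.9%, and both are at 10.5% at 16000 to 32000 UMIs.

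Single barcodes spread more than counting alone gives. In melanoma-like barcodes with at least 100 member UMIs (33076 barcodes), the variance of the mt-Co1 share was 7.28 times the binomial value at the median tumour (3.70 to 9.26), and the share ran from 7.14% at the lower to 14.8% at the upper decile. For mt-Nd1 the ratio was 4.97 and for mt-Nd5 1.5. The order of these ratios partly reflects abundance, since counting error weighs more for rare transcripts.

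Among 6050 nuclear genes, those whose level most resembled the summed members over 70 groups of melanoma-like barcodes (tumour by mitochondrial share, values centred within tumours) were Slc38a10 (Pearson r = 0.943), Apoe (0.935), Plxnb2 (0.935), Fkbp9 (0.928) and Scd2 (0.924). The lowest values were those of Rps13 (-0.949), Btf3 (-0.945), Rpl32 (-0.943), Rps16 (-0.942) and Rpl4 (-0.941), 4 of which encode cytosolic ribosomal proteins. The groups were cut by the mitochondrial share itself, so any gene that shifts with that share reaches a strong correlation. The groups also share libraries, and depth differs between them, so the values describe likeness only.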

How the data were processed

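Values deposited by the authors were unnormalised counts of UMIs from 8 single-cell 3′ libraries, and the submitters' processing notes name Cell Ranger 3.1.0, Seurat 3.2.1 and GRCm38. These counts held 31053 genes and 41925 barcodes, including those beyond the study's limits of 200 to 5000 genes and 7.5% mitochondrial RNA. The 10 members and all gene lists were chosen with earlier results of these data known. Barcodes with at least 200 nuclear genes were clustered with scanpy 1.11.5 (2000 variable genes without mitochondrial ones, 20 components, resolution 0.6), clusters were named from markers, and no doublet caller was used. Counts were summed per tumour and class, which needed at least 10 barcodes. Genotypes were compared with edgeR 4.0.16 (quasi-likelihood, TMM, Benjamini-Hochberg adjustment over all genes tested), with DESeq2 1.42.0 as an alternative. Shares within the 10 members were compared by exact two-sided permutation over tumours, or exact sign-flip tests within tumours, adjusted over the 10. P-values measure the spread between mice. On simulated counts for melanoma-like barcodes (12881 genes), edgeR recovered 82 of 96 genes changed by 1 on the log2 scale and 98 of 98 changed by 2, with 10 false calls among 12687. Of genes changed by 1 it recovered 57 of 90 for CAF-like, 60 of 87 for TAM-like and 74 of 99 for all barcodes. Smaller changes, such as those of the members, were not simulated. The named members were all 10, and nuclear genes were named by a fixed list or by the 5 highest and 5 lowest correlations. Replicate numbers did not pair tumours, as correlations of same-numbered deviations ran from -0.357 to -0.114.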

Additional observations from a re-analysis of the deposited data

Results flagged for a closer look

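Of 55 groups of 4 tumours tested for a value that stands apart from the other 3, 3 were marked, and chance marks about 1 in 20. In melanoma-like barcodes the mt-Atp6 share of the members was 26.7% in Atf4wt/wt replicate 2. The summed member share of all UMIs was 5.99% in Atf4wt/wt replicate 4, the tumour that gave 97.1% of the barcodes of 1 melanoma-like cluster. In this tumour the barcodes of that cluster had a share of 8.53%, above that of the tumour. The mt-Nd4 share was 6.63% in Atf4D/D replicate 4.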

How the results depend on the processing

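Of 1015 recomputed values, 926 kept their direction and side of the threshold, 57 turned in sign, 12 lost and 16 gained a call, and 4 counts moved. By total UMIs, 5 members passed under the study's limits and 5 at a mitochondrial share of 4% to 8%, against 8. Under those limits the log2 ratios that turned were mt-Nd2 0.115, mt-Co1 -0.247, mt-Atp6 0.0750, mt-Co3 0.0065, mt-Nd3 -0.110, mt-Nd4 -0.0615 and mt-Nd5 -0.374, and at 4% to 8% they were 0.169, -0.282, 0.0801, 0.0179, -0.120, -0.0469 and -0.266. Without the cluster of Atf4wt/wt replicate 4, mt-Nd5 was -0.0061. The TAM-like summed share was 1.20 percentage points lower (-1.20) at 2000 to 8000 UMIs and ranged from -0.268 to 0.190 without each tumour. DESeq2 called 1 member (mt-Nd3) in melanoma-like and 1 over all barcodes, without a share over all genes beside them. By genotype, turned shares in percentage points were mt-Co3 0.00134 and mt-Nd5 -0.00345 (study's limits), mt-Co2 -0.0390 (male mice, and again -0.0390 with clusters weighted equally), and mt-Co3 0.102 (without that cluster) and 0.124 (equal weights). CAF-like log2 ratios that turned were mt-Nd1 -0.0012 (study's limits) and -0.0145 (at most 2 melanoma UMIs), mt-Co2 -0.0263 (at most 2) and -0.0419 (2000 to 8000 UMIs), and mt-Nd4 0.0162 (2000 to 8000). TAM-like mt-Nd1 was 0.0327 (at most 2) and 0.234 (2000 to 8000). By mitochondrial share, mt-Cytb was 0.0809 (2.5% against 20%) and mt-Atp6 -0.0074 (melanoma-like only). In edgeR, mt-Nd1 was 0.0416 (no TMM), 0.0026 (sex as a term), 0.0611 (study's limits) and 0.0052 (without that cluster), mt-Nd4 0.0216 (study's limits) and mt-Co1 -0.0042 (male mice). Leaving out single tumours gave genotype ranges of -0.187 to 0.369 (mt-Co2), -0.177 to 0.247 (mt-Co3) and -0.0161 to 0.0595 (mt-Nd5), CAF-like mt-Co2 -0.0029 to 0.0077, TAM-like mt-Nd1 -0.0262 to 0.0325, total-UMI mt-Nd5 -0.0218 to 0.0435 and edgeR mt-Nd1 -0.0587 to 0.0641. The causes were not tested.

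With the replicate number as a block, a number that does not pair these tumours, edgeR called 0 members in each of the 4 fits, and mt-Nd3 in melanoma-like barcodes was at -0.46. Among all genes, edgeR called 0, 1, 3 and 0 in melanoma-like, CAF-like, TAM-like and all barcodes, 24, 109, 29 and 1 without a filter on low counts, 0, 5, 3 and 0 with the block, and DESeq2 called 129, 5, 4 and 138. Leaving out single tumours gave 0 to 8, 0 to 6, 0 to 5 and 0 to 10 genes, and the study's limits 4, 0, 5 and 0. The comparison of under 2000 with at least 32000 UMIs was not run, since 36 barcodes reached 32000.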
